A study of Homo sapiens with 2 samples.

Results

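The 50 genes described here encode factors that make ribosomes in the nucleolus. They were chosen by name, as a written list of rRNA transcription, rRNA processing and ribosome assembly factors that MYC typically drives. The list has no threshold on the values, but it was drawn up with earlier results of these data known. Each of the 50 had a value in both libraries and passed the filter on low values, out of 13521 genes that passed it.

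The libraries were made from total RNA of A549 cells, a human lung cancer line, harvested 48 h after lipid-based transfection. One culture received a control siRNA and the other a siRNA against MILIP, a long noncoding RNA also known as MAFG-AS1. The question here is how the ribosome biogenesis genes stood in the culture depleted of MILIP. A single siRNA sequence is behind the MILIP siRNA library, so its effects through MILIP and its effects on other transcripts cannot be told apart, and there is 1 library per condition, so no difference below has a replicate check and no test across conditions was possible.

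Ribosome synthesis begins in the nucleolus, where RNA polymerase I copies the rRNA genes into a long precursor. Small nucleolar RNAs (snoRNAs) in ribonucleoprotein particles (snoRNPs) guide its chemical modification, while the small subunit processome and a series of large subunit assembly factors fold, cut and package it. Many genes of these factors are known to be transcribed by MYC, which binds with MAX to the DNA motif called the E-box, and their expression is known to follow the growth rate of a cell.

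The values are read counts scaled to library size (CPM) for each gene. A ratio is the log2 of the value in the MILIP siRNA library over that in the control library with a pseudocount of 1 added to both, so that a negative ratio means a lower value with MILIP siRNA. The limits given with some ratios are 95% Clopper-Pearson limits of the ratio without the pseudocount. They rest on the reads that the values stand for and cover counting error only. How often the limits of any pair of genes fail to overlap was not counted. All values are relative, so a lower value means less of a transcript relative to the other RNA sequenced. Fewer cells with a transcript and less of it per cell cannot be told apart.

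Behind the values are 20300800 reads with control siRNA and 19460956 with MILIP siRNA. MILIP itself was at 29.5 CPM with control siRNA and at 3.22 CPM with MILIP siRNA, from 588 and 64 reads, a ratio of −2.85. The A549 label held against its markers. The keratin KRT8 was at 2543 and 2875 CPM and the aldo-keto reductase AKR1B10 at 2313 and 3119 CPM, and the surface protein EPCAM was low, at 2.65 and 5.93 CPM. By contrast, SFTPC, PECAM1, COL1A2, ALB and HBB, picked as genes absent from A549 cells or of other cell types, were listed at 0 in both libraries. The lowest value above 0 stood for 20 reads in each library, so a listed 0 may hide fewer reads than that. CDKN2A and PTPRC, also on the list of genes not sought in A549 cells, had no value.

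Across the 50 genes, values were lower with MILIP siRNA in most cases. At a threshold of 1.5-fold, 30 of the 50 (60.0%) were lower, beside 13.8% of all 13521 genes. Only NOLC1 was higher at this threshold, 1 of 50, beside 11.1% of all genes. In all, 46 of the 50 (92.0%) had a ratio below 0, beside 52.2% of all genes, and 5 (10.0%) were lower by 2-fold or more, beside 4.62% of all genes. These 5 were UTP20 (GRCh38, chr12:101280109-101386616, + strand), POLR1A (chr2:86020216-86106155, − strand), DKC1 (chrX:154762742-154777689, + strand), NCL (chr2:231453531-231483641, − strand) and TSR1 (chr17:2322503-2337507, − strand).

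The median ratio of the 50 genes was −0.68, with quartiles of −0.80 and −0.34. All genes had a median of −0.03, with quartiles of −0.36 and 0.29. The summed value of the 50 genes was 9244 CPM with control siRNA and 5879 CPM with MILIP siRNA, or 63.6% of control. NCL and NPM1 made up a large part of that sum, and without them it stood at 66.6% of control. The limits of the ratio lay wholly below 0 for 44 genes and wholly above 0 for NOLC1, NOP10 and PES1. Over all 13521 genes, they lay wholly below 0 for 4968 and wholly above 0 for 4165. For POLR1C, RRP12 and PPAN the limits held 0, and no difference was detectable at the depth of these libraries.

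**Figure D1:**
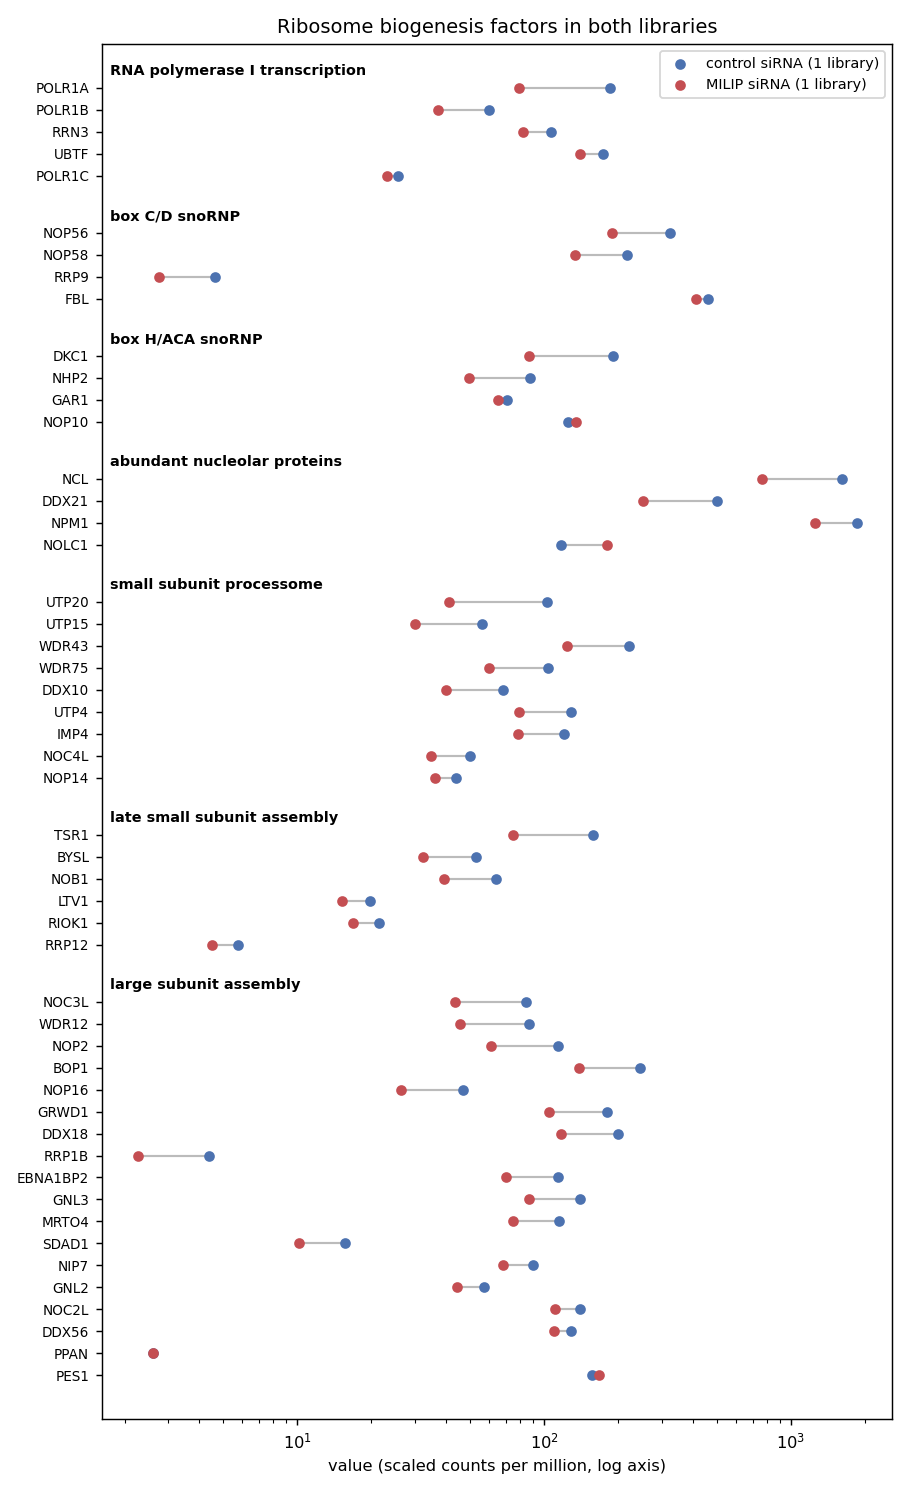
Value of each of the 50 ribosome biogenesis factors in CPM (log axis) in the control siRNA library (blue) and the MILIP siRNA library (red), by role, with 1 library per point. In 46 of the 50 genes the red point lies to the left of the blue one, and NOLC1 shows the widest gap the other way, from 117.7 to 180.3.

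RNA polymerase I and its initiation factors make the rRNA precursor. All 5 genes of this role had ratios below 0, with a median of −0.36, and 2 of them were lower by 1.5-fold or more. The shares over all genes were 52.2% and 13.8%. POLR1A, the largest subunit of the enzyme, was at 185.9 CPM with control siRNA and at 78.9 CPM with MILIP siRNA, a ratio of −1.23 with limits of −1.32 and −1.15. It ranked 380 from the lowest ratio among all genes. POLR1B, the second largest subunit, was at 59.6 and 37.1 CPM, a ratio of −0.67. The other 3 genes were closer to their control values. POLR1C, which RNA polymerases I and III share, was at 25.6 and 23.0 CPM, a ratio of −0.15 with limits of −0.34 and 0.03. UBTF, which binds the rRNA gene promoter and keeps its chromatin open, was at 172.8 and 139.3 CPM, a ratio of −0.31. RRN3, which makes the polymerase competent to start, was at 106.4 and 82.6 CPM, a ratio of −0.36. The limits of POLR1A did not overlap those of any of these 3 genes.

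Box C/D snoRNPs carry out methylation of the rRNA precursor, and FBL is their methyltransferase. FBL was at 463.6 CPM with control siRNA and 411.4 CPM with MILIP siRNA, a ratio of −0.17 with limits of −0.22 and −0.13. The scaffold proteins of the same particle stood lower. NOP56 was at 325.0 and 188.2 CPM, a ratio of −0.78 with limits of −0.85 and −0.73, and NOP58 was at 217.9 and 133.6 CPM, a ratio of −0.70 with limits of −0.78 and −0.64. The limits of both lay outside those of FBL. After subtraction of the trend of the ratio with GC content over all genes, described further on, the ratios were −0.24 for FBL, −0.88 for NOP56 and −0.50 for NOP58. RRP9, a protein of the U3 particle, was at 4.66 and 2.77 CPM, a ratio of −0.59 that rests on 93 and 55 reads.

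Box H/ACA snoRNPs convert uridines of rRNA to pseudouridine. Their genes fell on both sides of the 1.5-fold threshold. DKC1, the pseudouridine synthase, was at 190.0 CPM with control siRNA and at 87.1 CPM with MILIP siRNA, a ratio of −1.12 with limits of −1.21 and −1.04. NHP2, which binds the RNA of the particle, was at 87.5 and 49.9 CPM, a ratio of −0.80 with limits of −0.92 and −0.70. It shares 27.4% of its exonic bases with a gene of the opposite strand. The remaining core proteins were near their control values. GAR1 was at 70.8 and 65.3 CPM, a ratio of −0.12 with limits of −0.23 and −0.01, and NOP10 was at 124.8 and 134.3 CPM, a ratio of 0.11 with limits of 0.03 and 0.19. The limits of DKC1 and NHP2 overlapped neither those of GAR1 nor those of NOP10. The products of these genes sit in the same complex, and how often limits of other gene pairs overlap was not counted.

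Among the abundant nucleolar proteins, NCL (nucleolin), which binds the rRNA precursor and its genes, was at 1609 CPM with control siRNA and at 767 CPM with MILIP siRNA. Its ratio was −1.07 with limits of −1.10 and −1.04, and among all genes it ranked 534 from the lowest. DDX21, an RNA helicase of the nucleolus, was at 503.5 and 253.0 CPM, a ratio of −0.99. NPM1 (nucleophosmin), a chaperone of the granular part of the nucleolus, was at 1845 and 1255 CPM, a ratio of −0.56 that did not reach 1.5-fold. The annotation holds 45 pseudogenes of NPM1, and how reads were shared between NPM1 and these copies was not tested. NOLC1, which accompanies snoRNPs between the nucleolus and Cajal bodies, went the other way. It was at 117.7 CPM with control siRNA and at 180.3 CPM with MILIP siRNA, a ratio of 0.61 with limits of 0.54 and 0.69. None of its exonic bases are shared with another annotated gene, and it has no annotated pseudogene.

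**Figure D2:**
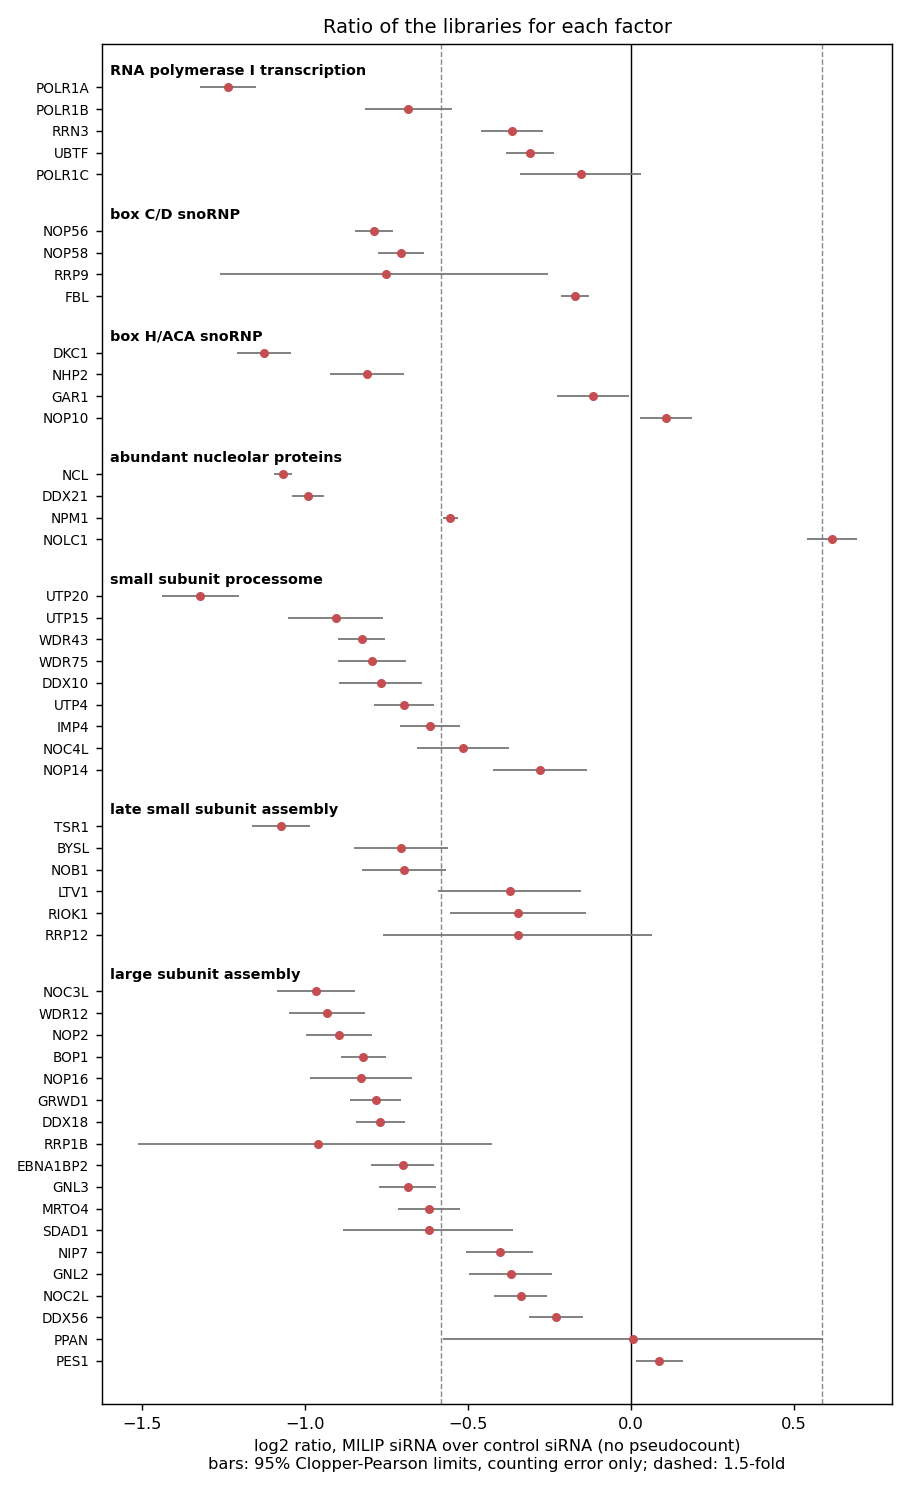
Log2 ratio of MILIP siRNA over control siRNA without a pseudocount for each of the 50 factors, by role, with 95% Clopper-Pearson limits (bars, counting error only), 1 library per condition and dashed lines at 1.5-fold. The bars of 44 genes lie wholly left of 0, as do the limits of 4968 of all 13521 genes. Within the box H/ACA particle the bars of DKC1 and NHP2 do not overlap those of GAR1 and NOP10.

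The small subunit processome assembles on the nascent rRNA precursor. All 9 of its genes had ratios below 0, with a median of −0.75, and 7 were lower by 1.5-fold or more. Of all genes 52.2% were below 0 and 13.8% were lower by 1.5-fold. UTP20, a large scaffold protein, had the lowest ratio of the 50 genes, with 102.8 CPM in the control library and 41.1 CPM in the MILIP siRNA library, a ratio of −1.30 with limits of −1.44 and −1.20. UTP15, WDR43, WDR75 and UTP4 encode proteins that load on the precursor early. UTP15 was at 56.0 and 29.9 CPM, a ratio of −0.88, and WDR43 was at 220.4 and 124.3 CPM, a ratio of −0.82. WDR75 was at 103.8 and 59.8 CPM, a ratio of −0.79, and UTP4 was at 128.2 and 79.1 CPM, a ratio of −0.69. Other proteins of the same particle are a helicase and partners of U3 snoRNA or of each other. DDX10, an RNA helicase, was at 68.3 and 40.1 CPM, a ratio of −0.75. IMP4, which binds U3 snoRNA with its partners, was at 120.0 and 78.2 CPM, a ratio of −0.61. NOC4L was at 49.9 and 34.9 CPM, a ratio of −0.50, and its partner NOP14 was at 44.0 and 36.3 CPM, a ratio of −0.27, and neither reached 1.5-fold.

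Late factors of the small subunit act on the pre-40S particle on its way to the cytoplasm. All 6 had ratios below 0, with a median of −0.52, and 3 were lower by 1.5-fold or more, beside 52.2% and 13.8% of all genes. TSR1 is a factor that resembles a translational GTPase and keeps the immature subunit from translating. It was at 157.5 CPM with control siRNA and at 74.8 CPM with MILIP siRNA, a ratio of −1.06 with limits of −1.16 and −0.98. TSR1 shares 20.8% of its exonic bases with genes of the opposite strand. BYSL, a protein of nuclear pre-40S particles, was at 53.0 and 32.5 CPM, a ratio of −0.69, and NOB1, the endonuclease that forms the end of mature 18S rRNA, was at 63.8 and 39.4 CPM, a ratio of −0.68. The export factors and kinase of the group differed less between the libraries. LTV1 was at 19.7 and 15.2 CPM, a ratio of −0.35, and shares 34.8% of its exonic bases with genes of the same strand. RIOK1, an atypical protein kinase, was at 21.5 and 16.9 CPM, a ratio of −0.33. RRP12, an export factor, was at 5.76 and 4.53 CPM, and its limits of −0.76 and 0.06 held 0.

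The 18 large subunit assembly factors had a median ratio of −0.69, and 11 of them were lower by 1.5-fold or more, beside 13.8% of all genes. None was lower by 2-fold, beside 4.62% of all genes, a share too small for its absence among 18 genes to mean much. The complex of PES1, BOP1 and WDR12 is needed to process the rRNA of the large subunit, and its genes did not stand together. WDR12 was at 87.3 CPM with control siRNA and 45.7 CPM with MILIP siRNA, a ratio of −0.92 with limits of −1.05 and −0.82. BOP1 was at 243.8 and 138.0 CPM, a ratio of −0.82 with limits of −0.89 and −0.75. PES1 was at 156.7 and 166.4 CPM, a ratio of 0.09 with limits of 0.02 and 0.16, clear of the limits of its partners. NOC3L and NOC2L, which escort early large subunit particles, differed by an amount that depended on the GC trend. NOC3L was at 84.9 and 43.4 CPM, a ratio of −0.95 with limits of −1.09 and −0.85, and NOC2L was at 140.0 and 110.7 CPM, a ratio of −0.34 with limits of −0.42 and −0.26. Their transcripts hold 37.7% and 60.0% GC, and with the GC trend subtracted their ratios were −0.67 and −0.42.

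Of the other early large subunit factors, NOP2, an rRNA methyltransferase, was at 113.4 and 60.9 CPM, a ratio of −0.89, with 54.4% of its exonic bases shared with a gene of the same strand. NOP16 was at 46.8 and 26.3 CPM, a ratio of −0.81, and EBNA1BP2, a scaffold of early particles, was at 114.1 and 70.2 CPM, a ratio of −0.69. GRWD1, a histone-binding protein that also binds pre-ribosomes, was at 180.3 and 104.7 CPM, a ratio of −0.78. Of the helicases of this role, DDX18 was at 199.2 and 116.9 CPM, a ratio of −0.76, and DDX56 at 129.1 and 109.9 CPM, a ratio of −0.23. With the GC trend subtracted they stood closer, at −0.49 and −0.29, and DDX18 no longer reached 1.5-fold. The nucleolar GTPases differed too, with GNL3 (nucleostemin) at 139.6 and 86.8 CPM, a ratio of −0.68, and GNL2 at 57.2 and 44.2 CPM, a ratio of −0.36. MRTO4, which holds the place of the stalk protein on the immature subunit, was at 115.1 and 74.8 CPM, a ratio of −0.61, and NIP7 was at 90.4 and 68.3 CPM, a ratio of −0.40. The 3 least abundant genes of this role gave less precise ratios. RRP1B was at 4.41 and 2.26 CPM, a ratio of −0.73 with limits of −1.51 and −0.43. SDAD1 was at 15.6 and 10.2 CPM, a ratio of −0.58. PPAN was at 2.60 and 2.61 CPM from 52 reads in each library, a ratio of 0.00 with limits of −0.58 and 0.59, and it shares 59.8% of its exonic bases with P2RY11 and their readthrough gene.

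Levels of different genes were compared per kilobase of annotated exon. In the control library NPM1 led with 482 CPM per kilobase, followed by NCL with 232, NOP10 with 225 and FBL with 213. In the MILIP siRNA library NPM1 was at 328, NOP10 at 243, FBL at 189 and NCL at 111, so that NCL stood below NOP10 and FBL there. The length used was that of all annotated exons, with 2173 bases for FBL, 6929 for NCL and 554 for NOP10. A single transcript of each holds 1160, 4034 and 554 bases, so the order of these genes depends on the length used. The lowest level was that of RRP12 in the control library, at 0.675 CPM per kilobase, and that of RRP1B in the MILIP siRNA library, at 0.393.

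The pattern was also present when only well-counted genes were considered. Among factors that averaged 20 CPM or more over both libraries, of which there were 43, 28 (65.1%) were lower by 1.5-fold or more, beside 15.1% of the 7845 genes at such levels.

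A second, longer list of 125 genes from the same pathway was drawn up by role without regard to single values, and 123 of them passed the filter. Their median ratio was −0.42. Of the 123, 107 (87.0%) had a ratio below 0, beside 52.2% of all genes. At 1.5-fold or more, 33 (26.8%) were lower and 1 was higher, beside 13.8% and 11.1% of all genes. The share of lower genes in the second list thus lay between that of the 50 factors and that of all genes. The median was −0.47 for 11 further genes of RNA polymerase I transcription, −0.47 for 8 genes of snoRNP core and assembly, −0.33 for 35 of the small subunit processome, −0.93 for 5 late small subunit factors, −0.38 for 50 large subunit factors and −0.42 for 14 genes of the nuclear exosome, which degrades and trims RNA. All 14 exosome genes had ratios below 0, but only MTREX, its helicase, was lower by 1.5-fold. That is 7.14% of them, a smaller share than the 13.8% of all genes.

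Of the second list, PNO1, the partner of NOB1 on the pre-40S particle, had the lowest ratio, with 90.6 CPM in the control library and 33.9 CPM in the MILIP siRNA library, a ratio of −1.39. MDN1, the giant ATPase that remodels large subunit particles, was at 69.3 and 29.4 CPM, a ratio of −1.21. RCL1, a processome protein, was at 44.5 and 19.0 CPM, a ratio of −1.19. The next were NOP9 with 43.0 and 20.3 CPM, a ratio of −1.04, and HEATR1, which loads early with UTP15 and WDR43, with 108.4 and 52.5 CPM, a ratio of −1.03. At the other end, NOP53, a cofactor of the exosome in large subunit assembly, was at 267.8 and 415.8 CPM, a ratio of 0.63, and SBDS, which acts at the last cytoplasmic step, was at 48.0 and 69.6 CPM, a ratio of 0.53. ZNF622, another cytoplasmic factor, was at 43.2 and 54.2 CPM, a ratio of 0.32. DDX27 followed with a ratio of 0.15 and NSA2 with 0.08. SNU13, the snoRNA-binding partner of NOP56 and NOP58, was at 104.2 and 63.3 CPM, a ratio of −0.71, and TCOF1, which works with UBTF, was at 128.0 and 120.3 CPM, a ratio of −0.09. Both of the latter genes were picked out after their values were seen.

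**Figure D3:**
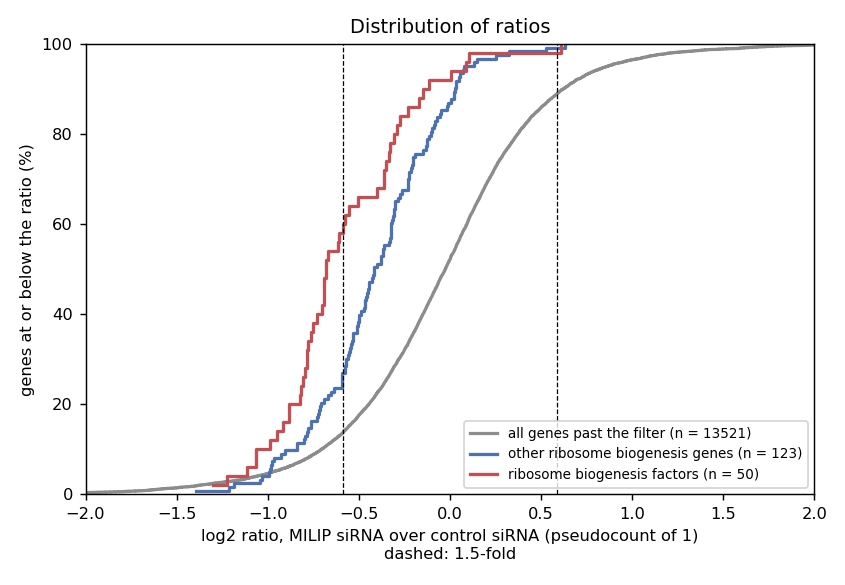
Cumulative share of genes (%) at or below each log2 ratio (pseudocount of 1, MILIP siRNA over control siRNA) for the 50 ribosome biogenesis factors (red), 123 other ribosome biogenesis genes (blue) and all 13521 genes past the filter (grey), with dashed lines at 1.5-fold. At the left dashed line the curves stand at 60.0%, 26.8% and 13.8%.

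MYC, named in the choice of the genes as their typical driver, was itself lower in the MILIP siRNA library, at 177.9 CPM with control siRNA and 111.5 CPM with MILIP siRNA, a ratio of −0.67 with limits of −0.75 and −0.60. Its partner MAX was at 44.8 and 48.6 CPM, a ratio of 0.11 with limits of −0.02 and 0.25. The part of MYC in the values of the 50 genes was not tested.

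The motif CACGTG, the canonical E-box that MYC and MAX are known to bind, was therefore looked up in RefSeq promoter windows (GRCh38.p14) that run from 250 bases before to 50 bases after a transcription start. The motif reads the same on both strands. A window was given for 44 of the 50 genes, and 20 of these (45.5%) held the motif in at least 1 window. The same was true of 24 of 105 genes of the second list (22.9%) and of 1302 of the 10344 genes past the filter that had a window (12.6%), and of all 35116 windows 7.26% held it. Genes may have several windows, and among genes with a single window the shares were 15 of 34 (44.1%) and 10.3% of 7356. The 50 genes were chosen as ones that MYC typically drives, so their share with the motif is not independent of that choice.

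The sites shown are those of the genes that were lower by 1.5-fold or more. In each of these genes the motif nearest to the start begins within 42 bases of it. Each line gives the strand of the gene 5′ to 3′, with the E-box in capitals and neighbouring bases in lower case, cut at the end of the window in NOP2 and EBNA1BP2. EBNA1BP2 and IMP4 have another site further upstream, which is not shown.
UTP20: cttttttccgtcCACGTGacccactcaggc
DDX21: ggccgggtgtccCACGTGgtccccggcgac
NOC3L: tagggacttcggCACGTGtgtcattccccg
NOP2: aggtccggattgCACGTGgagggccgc
WDR43: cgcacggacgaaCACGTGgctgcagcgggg
EBNA1BP2: gcgattcggtggCACGTGga
UTP4: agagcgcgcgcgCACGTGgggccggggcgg
BYSL: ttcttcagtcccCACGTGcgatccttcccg
GNL3: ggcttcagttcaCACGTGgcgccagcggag
MRTO4: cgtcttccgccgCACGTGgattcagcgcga
IMP4: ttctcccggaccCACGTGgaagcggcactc
RRP9: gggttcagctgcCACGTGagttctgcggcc

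In this numbering the first transcribed base is position 0. The UTP20 site (chr12:101280083-101280112, + strand) has its motif start at position −10, the UTP4 site (chr16:69132621-69132650, + strand) at −16, the DDX21 site (chr10:68956604-68956633, + strand) at −31 and the RRP9 site (chr3:51941892-51941921, − strand) at −5. The others begin after the start. The WDR43 site (chr2:28894658-28894687, + strand) begins at 3, the GNL3 site (chr3:52686026-52686055, + strand) at 6, the MRTO4 site (chr1:19251807-19251836, + strand) at 14 and the IMP4 site (chr2:130342900-130342929, + strand) at 15. The NOC3L site (chr10:94362903-94362932, − strand) begins at 19, the BYSL site (chr6:41921515-41921544, + strand) at 28, the NOP2 site (chr12:6568242-6568268, − strand) at 35 and the EBNA1BP2 site (chr1:43172241-43172260, − strand) at 42.

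The same letters stand as close to the start in GNL2, FBL, PES1, NOP14, LTV1, GAR1 and NOP10, which were not lower by 1.5-fold. In SDAD1, also not lower by 1.5-fold, the motif begins at −228. A pair of these genes, chosen after their values were seen, is shown for contrast. The NOP10 site (chr15:34343130-34343159, − strand) has its motif start at −11 and the PES1 site (chr22:30591880-30591909, − strand) at 13.
NOP10: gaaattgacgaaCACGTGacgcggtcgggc
PES1: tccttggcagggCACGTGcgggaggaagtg

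Within the 50 genes, ratios with and without the motif overlapped over most of their range. The 20 genes with it had a median ratio of −0.61 and 12 of them (60.0%) were lower by 1.5-fold or more, and the 24 without it had a median of −0.72 and 14 of them (58.3%) were lower. Among genes with a single window, 8 of 15 with the motif (53.3%) were lower, with a median of −0.59, and 13 of 19 without it (68.4%), with a median of −0.78. Genes without the motif included POLR1A, DKC1, NCL and TSR1. Over all genes past the filter with a window, those with the motif had a median of −0.08, with 15.7% lower, and those without it a median of −0.02, with 13.6% lower. The absence of a match says only that these letters do not occur in the window, and a match is not evidence of binding.

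Several of the genes are hosts of snoRNAs, which are cut from their introns. In the annotation, 9 of the 50 hold at least 1 snoRNA of the same strand within the gene, namely NOP56, NOP58, DKC1, NCL, WDR43, TSR1, GNL3, PPAN and POLR1C. Their median ratio was −0.78, 7 of the 9 were lower by 1.5-fold or more, and their summed value in the MILIP siRNA library was 51.5% of control, a sum in which NCL alone held 1609 of 2887 CPM in the control library. The other 41 genes had a median of −0.61, 23 of them were lower by 1.5-fold, and their summed value was 69.1% of control. Of all genes past the filter 13.8% were lower by 1.5-fold or more, and the snoRNA hosts among them were not counted. Whether hosting a snoRNA bears on the ratio was not tested. NCL holds SNORA75, SNORD20 and SNORD82, and DKC1 holds SNORA36A and SNORA56. The host genes that were not lower by 1.5-fold were PPAN, at a ratio of 0.00, and POLR1C, at −0.15.

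**Figure D4:**
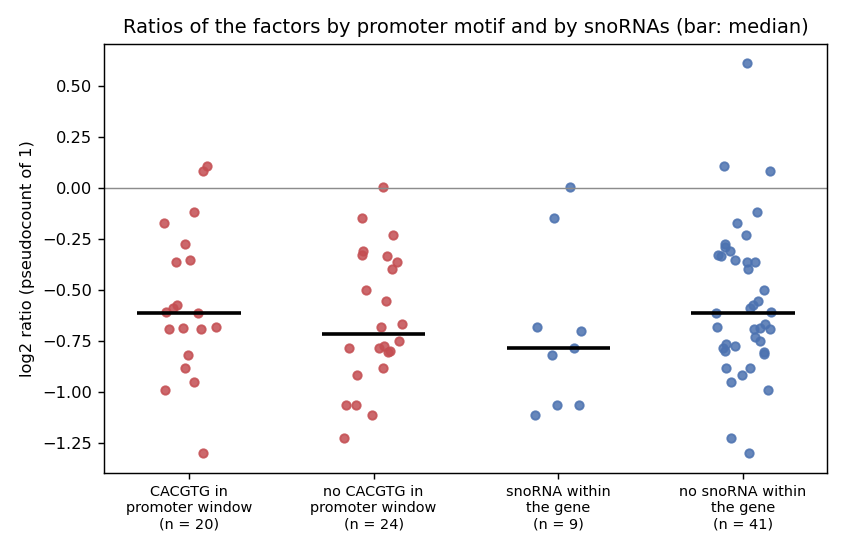
Log2 ratio (pseudocount of 1, MILIP siRNA over control siRNA) of single factors with and without CACGTG in a promoter window (red, 20 and 24 genes) and with and without a snoRNA within the gene (blue, 9 and 41 genes), where points are genes, bars are medians and the sideways spread has no meaning. The medians are −0.61 and −0.72 by motif and −0.78 and −0.61 by snoRNA, and the points of each pair overlap.

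Some properties of transcripts moved with the ratio over all genes, and their values are given beside those of the 50 factors. The median ratio over all genes increased with the GC content of the transcript, from −0.22 in the lowest of 5 equal classes to 0.18 in the highest. The 50 factors had a median GC content of 49.0%, with a range of 37.7% to 65.2%, and all genes had a median of 49.4%. From the lowest class to the highest, the factors had medians of −0.82, −0.40, −0.69, −0.61 and −0.55 over 9, 9, 13, 13 and 6 genes. In the same order, 8, 3, 8, 8 and 3 of these factors were lower by 1.5-fold. Of all genes in the classes, 21.8%, 15.8%, 15.1%, 9.74% and 6.60% were lower. With the GC trend subtracted, the median of the factors was −0.60 and 26 were lower, beside 11.9% of all genes. Of these, 25 were among the original 30. POLR1B, NOP58, WDR75, DDX18 and GNL3 no longer reached 1.5-fold, and NOC4L did.

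**Figure D5:**
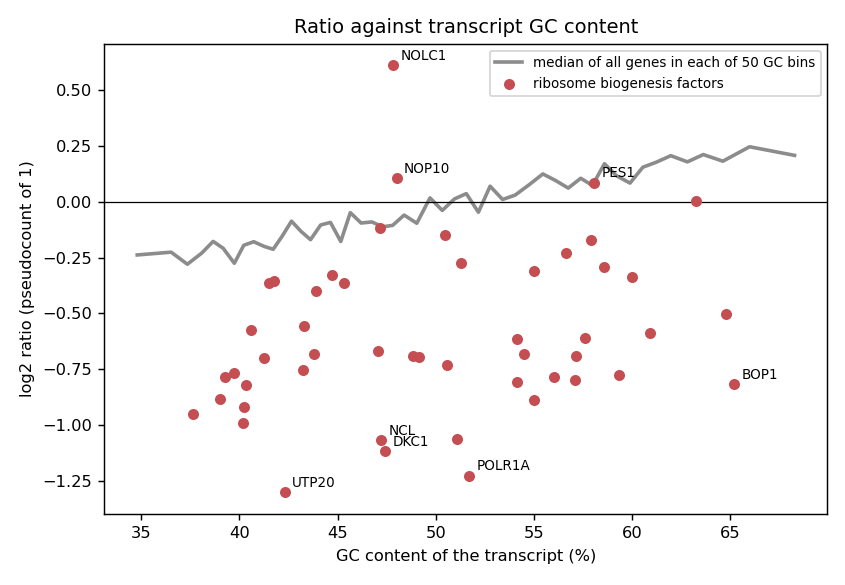
Log2 ratio (pseudocount of 1, MILIP siRNA over control siRNA) of the 50 factors (red points) against the GC content of the transcript (%), with the median of all genes in each of 50 GC bins as a grey line. The line climbs with GC content and most red points lie below it at low and high GC content alike, with UTP20 the lowest at −1.30 and NOLC1 the highest at 0.61.

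A siRNA can also lower other transcripts through its seed, bases 2 to 8 of the guide strand. The letters complementary to the seed of the MILIP siRNA are GACCCTA, and 3′ UTRs of the GENCODE release 29 annotation (GRCh38) were searched for them on the strand of the transcript. They occurred in 558 of the 12062 genes past the filter with a 3′ UTR (4.63%), which had a median ratio of −0.49, and genes without them had a median of −0.01. The 3′ UTRs had a median length of 3017.5 bases with the match and 1018 without it, in 1 transcript per gene. The part of this length in the gap was not tested. Among the 50 factors 1 gene, POLR1A, held them, with the seed match in capitals on the − strand at chr2:86020954-86020982. The share of the POLR1A ratio that belongs to this site was not tested.
POLR1A: acttacagtggGACCCTAagaaatgcact

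The remaining 49 factors had a median ratio of −0.68. Of them, 29 (59.2%) were lower by 1.5-fold or more, beside 12.7% of all genes whose 3′ UTR lacked the match. Reads of overlapping genes bear on some of the genes as well. In the annotation, 34 of the 50 share under 5% of their exonic bases with another gene on either strand. These had a median of −0.69 with 23 lower, beside 13.8% of all genes past the filter. The other 16 had a median of −0.38 with 7 lower, and for them reads of the neighbouring gene cannot be told apart from their own, as the use of strand in counting is not given in the sources used here.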

How the data were processed

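Per the labels and the study's design text, 1 library was made per condition. The authors listed 60711 genes and gave values for 27856 of them. TopHat2 2.0.12, HTSeq 0.6.1 and hg38 are named in the submitters' processing notes, without their roles. Annotation, use of strand and scaling are not given in the sources used here. The deposited columns are named as read counts but were used as CPM, since each value is a whole multiple of 1 step per library (0.0501 and 0.0503, within 0.1 of a step). One step was taken as 1 read. The authors' fold change, p-value, q-value and call columns were not used.

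Ratios were taken with a pseudocount of 1 over 13521 genes with a mean of at least 1 CPM, of which 13365 matched a symbol. Genes were counted from 1.5-fold. Coordinates, exons, snoRNAs and 3′ UTRs came from GENCODE release 29, and promoter windows from RefSeq. All 50 genes were named, and of the second list the 5 highest and 5 lowest with a mean of at least 5 CPM. The members and lists were chosen with earlier results of these data known. The calculation was tested on simulated data. The scripts ran in Python 3.11.15 with pandas 2.3.3 and numpy 2.4.6, limits came from scipy 1.17.1 and plots from matplotlib 3.10.9.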

Additional observations from a re-analysis of the deposited data

How the results depend on the processing

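Every ratio rests on 1 library per condition, so the spread between cultures, siRNA sequences and library preparations was not measured, and among the 50 factors the depth limits the ratios of PPAN, RRP1B, RRP9 and RRP12 most. At a threshold of 2-fold, 0 of the 50 factors were higher, beside 3.48% of all genes, and 5 were lower, beside 4.62%. A smaller pseudocount (0.1), scaling to the total of reads, scaling to the median ratio, dropping the filter and a filter at 5 CPM were also planned. Removing the GC trend and leaving out genes with a seed match were chosen after seeing the data. Under these 7 alternatives between 26 and 31 of the factors were lower by 1.5-fold and 1 was higher, and the median ratio ranged from −0.60 to −0.70. Over all genes, the share lower ranged from 7.85% to 15.5% and the share higher from 7.23% to 13.3%. Leaving out genes with exon overlap, also chosen after seeing the data, left 34 factors, of which 23 were lower. Of the 13448 genes left, 13.7% were lower, but overlap was computed only for the genes of the lists used here. The median of the second list ranged from −0.31 to −0.43 over all of these alternatives. Both other scalings gave 27 lower factors, without IMP4, MRTO4 and RRP9. Single ratios moved beyond their counting limits for 31 factors on removal of the GC trend, for 5 on scaling to the total of reads and for 2 on scaling to the median ratio. No paired analysis was possible because there was a lone library on either side, and leaving out a library would end the comparison.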
